A study of Rattus norvegicus with 6 samples.

Results

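The genes described here are those of sodium uptake and potassium secretion in the aldosterone-sensitive distal nephron. They comprise the 3 subunits of the epithelial sodium channel (Scnn1a, Scnn1b and Scnn1g), the potassium channel ROMK (Kcnj1), the basolateral potassium channel subunits Kcnj10 and Kcnj16, the kinase Sgk1, the ubiquitin ligase Nedd4l, the mineralocorticoid receptor Nr3c2 and the enzyme Hsd11b2. They were listed by name, since a laxative can waste salt and potassium, and the rule uses no measured value. A probe was matched to 9 of the 10 genes through its RefSeq accession, out of 15284 named genes with a probe, and none was matched to Nedd4l, which is not analysed here. These 9 genes had 15 probes, of which 14 passed the filter on dim probes (well above background on 3 or more of the 6 arrays) and were tested.

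The tissue was renal cortex, the outer part of the kidney, from male Sprague-Dawley (Crl:CD(SD)) rats bought at 5 weeks of age. The treated group was 3 rats given phenolphthalein, a pH indicator once sold as a laxative, at 1000 mg/kg/day for 4 weeks. The control group was 3 rats given corn oil, the vehicle, for the same 4 weeks, and all rats were kept on a basal diet with tap water. Total RNA of each rat was hybridised to 1 single-colour Agilent array of 61657 probes.

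In principal cells and connecting tubule cells, sodium enters from the urine through the epithelial sodium channel, and the voltage this creates drives potassium out through ROMK. Aldosterone binds the mineralocorticoid receptor, and the receptor induces Sgk1, which phosphorylates Nedd4l and so keeps the channel at the cell surface. Hsd11b2 inactivates corticosterone in the same cells and so reserves the receptor for aldosterone. The subunits encoded by Kcnj10 and Kcnj16 form a potassium channel of the blood-facing membrane of the distal tubule. A loss of salt and potassium, as in laxative use, is known to raise aldosterone through renin, while low plasma potassium restrains it. Hormones and electrolytes are not among the values used here.

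The mineralocorticoid receptor binds DNA at the letters AGAACA, most strongly where an inverted repeat sets 2 of them 3 bases apart, and TATAAA marks many start sites of regulated genes. Promoter sequence from RefSeq (build GRCr8), taken as the 250 bases before the start, was at hand for 7 of the 10 genes with 10 listed starts. Shown are the starts of Sgk1 with a TATAAA and both starts of Kcnj1, the channel gene with AGAACA, since these starts carry the letters searched. Starts are numbered as RefSeq's table lists them, and Sgk1 start 2 held neither motif. They are written 5′ to 3′ on the strand of the gene, with TATAAA and with AGAACA in either orientation in capitals.
Sgk1 start 1, chr1:24807232-24807481, minus strand: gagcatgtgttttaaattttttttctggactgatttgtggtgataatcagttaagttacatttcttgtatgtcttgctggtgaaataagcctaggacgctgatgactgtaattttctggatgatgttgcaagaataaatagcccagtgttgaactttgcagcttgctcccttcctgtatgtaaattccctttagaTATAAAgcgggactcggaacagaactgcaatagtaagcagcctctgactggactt
Sgk1 start 3, chr1:24804832-24805081, minus strand: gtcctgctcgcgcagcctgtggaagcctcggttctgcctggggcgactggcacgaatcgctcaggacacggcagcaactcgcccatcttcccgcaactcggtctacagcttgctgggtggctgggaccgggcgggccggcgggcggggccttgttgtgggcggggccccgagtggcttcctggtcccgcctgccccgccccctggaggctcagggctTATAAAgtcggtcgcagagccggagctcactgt
Kcnj1 start 1, chr8:39037742-39037991, plus strand: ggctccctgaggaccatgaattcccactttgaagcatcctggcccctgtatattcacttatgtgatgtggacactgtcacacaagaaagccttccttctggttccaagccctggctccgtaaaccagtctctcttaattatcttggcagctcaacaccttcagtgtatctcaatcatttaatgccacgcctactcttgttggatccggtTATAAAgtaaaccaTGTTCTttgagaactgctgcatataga
Kcnj1 start 2, chr8:39061391-39061640, plus strand: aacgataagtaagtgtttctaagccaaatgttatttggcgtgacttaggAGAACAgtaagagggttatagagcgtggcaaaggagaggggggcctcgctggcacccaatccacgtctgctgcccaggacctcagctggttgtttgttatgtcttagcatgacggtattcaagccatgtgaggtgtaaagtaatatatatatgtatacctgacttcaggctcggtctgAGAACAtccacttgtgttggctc
AGAACA in either orientation stood in 2 of the 10 listed starts, both of Kcnj1, against 17.5% of all 33469 rat promoters of this length, and the inverted repeat stood in 0 of 10, against 0.0120% of all. TATAAA on either strand stood in 3 of 10, against 12.9% of all: at 49 and 27 bases before Sgk1 starts 1 and 3 and at 35 bases before Kcnj1 start 1. The clock and Myc motif CACGTG stood in 0 of 10, against 5.59% of all. These matches describe letters in a short window and say nothing of binding. Scnn1g and Scnn1b are neighbours on chromosome 1 in that assembly, with no other protein-coding gene between them.

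No member differed between phenolphthalein and vehicle rats past the threshold, an adjusted p of 0.05 in limma over all 43473 probes tested. By the probe with the highest mean of each gene, the smallest limma adjusted p of a member was 0.656. A second, dimmer Scnn1a probe gave a smaller one, which was not past the threshold either. For comparison, 0.00% of all named genes and 0.00% of all probes were past it. At an unadjusted p under 0.05 the count was also 0 of 9 members, against 10.1% of all 12269 named genes tested and 8.82% of all probes. The groups overlapped on every one of the 15 probes, against 16.4% of named genes and 15.6% of probes whose groups did not overlap. The log2 fold change was above 0 for 4 members and below 0 for 5, with a median of -0.02, against -0.02 over all named genes. In a bulk tissue, fewer cells of a type and less RNA per cell cannot be told apart. Levels below are log2 values relative to the 75th percentile of the array, so 0 is the level of that percentile, and they are compared between rats and not between genes.

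**Figure D1:**
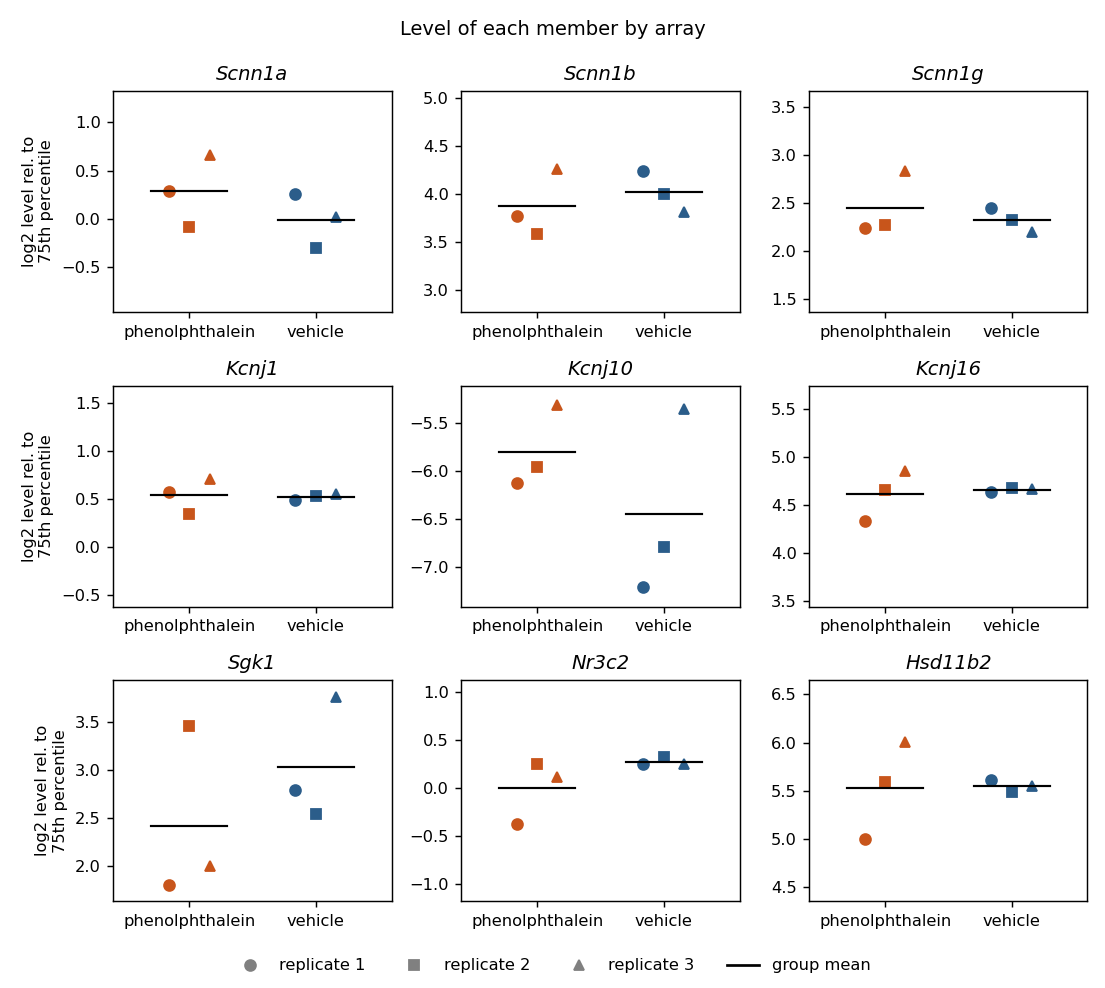
Level of the 9 measured members on each array, as log2 relative to the array's 75th percentile, with the phenolphthalein rats left of the vehicle rats. Each symbol is 1 rat and each line a group mean, and every panel spans the same number of log2 units. The groups overlap in every panel.

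The pore of the sodium channel is built from the alpha, beta and gamma subunits, of which aldosterone raises the alpha transcript in rat kidney. Scnn1a, the alpha subunit, stood at 0.29, -0.09 and 0.66 in the phenolphthalein rats, against 0.26, -0.30 and 0.02 in the vehicle rats. Phenolphthalein rat 3 was the highest of the 6 and vehicle rat 2 the lowest. Its log2 fold change was 0.29 (SE 0.21, 95% interval -0.21 to 0.80, limma adjusted p = 0.721). A second, dimmer Scnn1a probe read -2.94, -3.91 and -3.04 in phenolphthalein rats and -3.99, -4.17 and -3.6 in vehicle rats. On it phenolphthalein rats 1 and 3 lay above every vehicle rat while rat 2 lay among them, and the log2 fold change was 0.62 (SE 0.29, limma adjusted p = 0.60). Without phenolphthalein rat 2 that probe gave 0.93 (limma adjusted p = 0.346) and the brighter one 0.48 (limma adjusted p = 0.519). The brighter probe gave 0.11 without phenolphthalein rat 3 (limma adjusted p = 0.879) and 0.15 without vehicle rat 2 (limma adjusted p = 0.912).

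Scnn1b, the beta subunit, stood at 3.76, 3.58 and 4.26 in the phenolphthalein rats, against 4.24, 4.0 and 3.81 in the vehicle rats. The highest and the lowest of the 6 rats were both in the phenolphthalein group. The groups differed by a log2 fold change of -0.15 (SE 0.19, 95% interval -0.59 to 0.29, limma adjusted p = 0.842). A second probe, at 0.95, 0.77 and 1.36 in phenolphthalein rats and 1.22, 1.08 and 1.04 in vehicle rats, put the 6 rats in the same order and gave -0.09 (limma adjusted p = 0.892). Without phenolphthalein rat 3 the brighter probe gave -0.35 (limma adjusted p = 0.588).

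Scnn1g, the gamma subunit, stood at 2.24, 2.27 and 2.84 in the phenolphthalein rats, against 2.45, 2.32 and 2.20 in the vehicle rats. Phenolphthalein rat 3 lay above all others, and the other 2 phenolphthalein rats lay within the vehicle range. The groups differed by 0.13 on the log2 scale (SE 0.16, 95% interval -0.26 to 0.52, limma adjusted p = 0.850). It was -0.07 without phenolphthalein rat 3. By the probe with the highest mean, all 3 subunits were therefore highest in phenolphthalein rat 3, while their intervals each held 0. On the dimmer Scnn1a probe phenolphthalein rat 1 was the highest, at -2.94 against -3.04 in rat 3.

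Kcnj1 encodes ROMK, the secretory potassium channel of the distal nephron and thick ascending limb. It stood at 0.57, 0.35 and 0.71 in the phenolphthalein rats, against 0.49, 0.53 and 0.55 in the vehicle rats. The vehicle rats lay inside the range of the phenolphthalein rats. Its log2 fold change was 0.02 (SE 0.10), with a 95% interval of the fold from 0.859 to 1.19 (limma adjusted p = 0.970), the narrowest interval among the members. The second probe, at 0.24, 0.22 and 0.56 in phenolphthalein rats and 0.39, 0.24 and 0.49 in vehicle rats, gave -0.03 (limma adjusted p = 0.949).

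Kcnj16, the partner subunit of the basolateral channel, stood at 4.33, 4.65 and 4.86 in the phenolphthalein rats, against 4.63, 4.68 and 4.67 in the vehicle rats. The 3 vehicle rats were nearly equal, with phenolphthalein rat 1 below and rat 3 above them. The difference between the groups was -0.05 on the log2 scale (SE 0.12, 95% interval -0.34 to 0.25, limma adjusted p = 0.931). Kcnj10, the pore subunit that pairs with it, was read by a dim probe, well above background on 2 of 3 phenolphthalein arrays and on just 1 of 3 for vehicle. It gave -6.13, -5.96 and -5.32 in phenolphthalein rats and -7.21, -6.79 and -5.36 in vehicle rats. Its log2 fold change was 0.65 (SE 0.53, 95% interval -0.60 to 1.90, limma adjusted p = 0.748), and the other Kcnj10 probe was above background on no array. Values this near background give Kcnj10 little weight.

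Sgk1, the kinase induced by aldosterone and by glucocorticoids, varied most between the rats among the well-measured members. It stood at 1.80, 3.45 and 2.00 in the phenolphthalein rats, against 2.79, 2.54 and 3.76 in the vehicle rats. Phenolphthalein rats 1 and 3 were the lowest of the 6, and phenolphthalein rat 2 was exceeded by vehicle rat 3 alone. The log2 fold change was -0.61 (SE 0.49), with a 95% interval of the fold from 0.294 to 1.45 (limma adjusted p = 0.742). Without phenolphthalein rat 2 the log2 fold change was -1.13 (unadjusted p = 0.0181, limma adjusted p = 0.442), and without vehicle rat 3 it was -0.25. Phenolphthalein rat 2 also carried the highest levels of the liver plasma protein transcripts: the summed linear level of the 6 liver markers was 21.1 in that rat, against 3.02 to 9.03 in the other 5, and the part of this in the Sgk1 value was not tested.

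Per1, a clock gene that aldosterone also induces, was singled out after its values were seen because its brighter probe ranked the 6 rats exactly as Sgk1 did. Per1 stood at -2.85, -1.24 and -2.28 in the phenolphthalein rats, against -1.50, -1.90 and -1.12 in the vehicle rats, with a log2 fold change of -0.62 (SE 0.40, limma adjusted p = 0.693). A second, dimmer Per1 probe did not share that order: it read -4.77, -4.42 and -4.23 in phenolphthalein rats and -4.61, -4.78 and -3.85 in vehicle rats, a log2 fold change of -0.06 (limma adjusted p = 0.966). By the brighter probe of each gene, the order of Sgk1 was shared by 33 of the 12268 other named genes, and by 5 of them with a span of at least 1 log2 unit over the 6 rats, namely Ubd, Ccl1, Per1, Ube2t and Sfrp2. By these probes, Sgk1 and Per1 were lowest in phenolphthalein rats 1 and 3 and highest in vehicle rat 3, so the groups were mixed in that order.

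**Figure D2:**
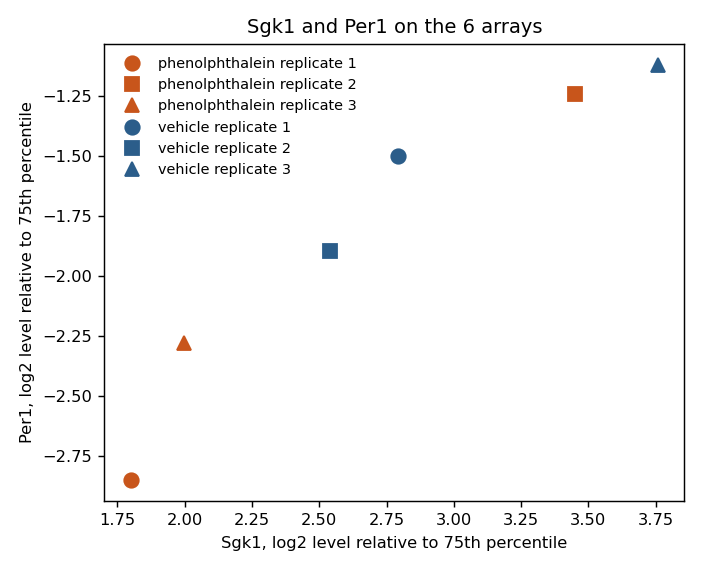
Sgk1 (horizontal axis) and the brighter Per1 probe (vertical axis) in each of the 6 rats, both as log2 relative to the array's 75th percentile. Orange symbols are phenolphthalein rats and blue symbols vehicle rats; the colours are mixed along the diagonal, with phenolphthalein rat 2 beside vehicle rat 3 at the top.

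Nr3c2, the mineralocorticoid receptor, stood at -0.38, 0.25 and 0.11 in the phenolphthalein rats, against 0.24, 0.32 and 0.25 in the vehicle rats. Phenolphthalein rats 1 and 3 lay below every vehicle rat, and rat 2 lay within the narrow vehicle range. The log2 fold change was -0.28 (SE 0.16, 95% interval -0.65 to 0.10, limma adjusted p = 0.656), the smallest p among the members by the probe with the highest mean. It was -0.09 without phenolphthalein rat 1 (limma adjusted p = 0.768) and -0.41 without rat 2 (unadjusted p = 0.0356, limma adjusted p = 0.496). The 2 dimmer Nr3c2 probes also gave values below 0, at -0.22 and -0.28 (limma adjusted p = 0.853 and 0.852), but neither was well above background on all 6 arrays.

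Hsd11b2, which protects the receptor from corticosterone, stood at 4.99, 5.59 and 6.0 in the phenolphthalein rats, against 5.61, 5.48 and 5.55 in the vehicle rats. Phenolphthalein rat 1 was the lowest and rat 3 the highest of the 6, while the vehicle rats were close together. The level averaged 5.53 ± 0.51 in phenolphthalein rats and 5.55 ± 0.07 in vehicle rats (SD, n = 3 each). The log2 fold change was -0.02 (SE 0.23, 95% interval -0.56 to 0.51, limma adjusted p = 0.983).

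**Figure D3:**
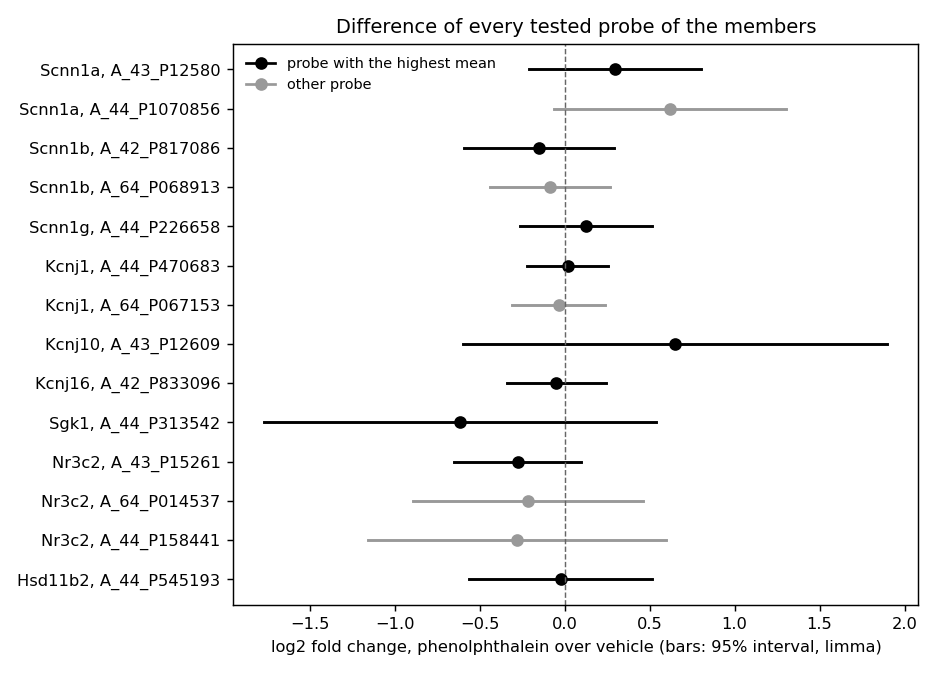
Difference of every tested probe of the members, as the log2 fold change of phenolphthalein over vehicle. Black points are the probe with the highest mean for each gene, grey points the other probes, and bars the 95% interval from limma; every bar crosses 0.

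The phenolphthalein rats differed more among themselves in these genes than the vehicle rats did. The span was wider in the phenolphthalein rats for 8 of 9 members, all but Kcnj10, against 61.7% of all named genes. It was also wider for 13 of 14 kinase and ligase partners of the channel and 6 of 7 principal and connecting tubule markers. For thick ascending limb markers the count was 2 of 5, and for channel proteases with their inhibitors 4 of 9. Lists outside the distal nephron also had it, with 6 of 6 liver, 3 of 3 adrenal and 4 of 6 inner medulla markers. It was 6 of 8 for intercalated cell markers, 9 of 12 for aldosterone-induced genes, 2 of 5 for podocyte and 1 of 6 for leukocyte markers. The members' median SD was 0.35 in phenolphthalein rats and 0.13 in vehicle rats, against 0.14 and 0.10 over all named genes. Phenolphthalein rat 3 was the highest of its group for 7 of 9 members (36.5% of all named genes) and phenolphthalein rat 1 the lowest for 6 of 9 (40.8%). Both held for 4 of 9, Scnn1g, Kcnj10, Kcnj16 and Hsd11b2 (21.6%). Rat 3 was also the highest of its group for 5 of 7 principal and connecting tubule markers and 6 of 8 intercalated cell markers. The same held for 4 of 4 distal convoluted tubule, 6 of 8 proximal tubule and 4 of 5 podocyte markers. It held for 2 of 5 thick ascending limb and 0 of 6 inner medulla markers. The spread was noticed in these values, so these shares are descriptions, and no test was made of them. The count of members with the wider span was 5 without phenolphthalein rat 3, 6 without rat 2 and 8 without rat 1.

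Phenolphthalein rats 2 and 3 lay on 1 slide, rat 1 on another and all vehicle rats on one of their own, so slide and group cannot be told apart. Phenolphthalein rats 2 and 3 differed from each other by more than the whole vehicle span for 8 of 9 members, against 34.8% of all named genes. The same held for 5 of 7 principal and connecting tubule markers and 3 of 8 intercalated cell markers. The vehicle span was read on another slide, and the part of the slide in these differences was not tested. Per rat, the median deviation of the members from the vehicle mean was -0.25, -0.02 and 0.24 in the phenolphthalein rats and -0.03, -0.02 and 0.01 in the vehicle rats. For all named genes it lay between -0.03 and 0.00 in phenolphthalein rats and between -0.01 and 0.01 in vehicle rats.

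Several cell marker lists, podocytes among them, were also higher in phenolphthalein rat 3 than in rat 1. The median difference of phenolphthalein rat 3 minus rat 1 was 0.50 over the members, 0.44 over 7 principal and connecting tubule markers and 0.49 over 8 intercalated cell markers. It was 0.15 over 4 distal convoluted tubule markers, -0.02 over 5 thick ascending limb markers, 0.13 over 8 proximal tubule markers, 0.24 over 5 podocyte markers, -0.16 over 6 inner medulla markers and 0.03 over all named genes. It was 0.36 over 6 liver markers, 0.14 over 6 leukocyte markers and -0.96 over 3 adrenal markers. The summed linear level of the intercalated markers was 118, 156 and 182 in the phenolphthalein rats, against 130, 144 and 163 in the vehicle rats. That of the principal and connecting tubule markers was 91.0, 111 and 126 in the phenolphthalein rats, against 145, 123 and 174 in the vehicle rats. The brightest genes carry such a sum, here Aqp2 and Aqp3 (vehicle means 6.68 and 5.09, with Tfap2b next at 2.50). The median deviation of the 7 markers from the vehicle mean was -0.10, -0.23 and 0.27 in the phenolphthalein rats. In the vehicle rats it was -0.07, -0.02 and 0.11. The part of these cell markers in the members' spread was not tested.

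**Figure D4:**
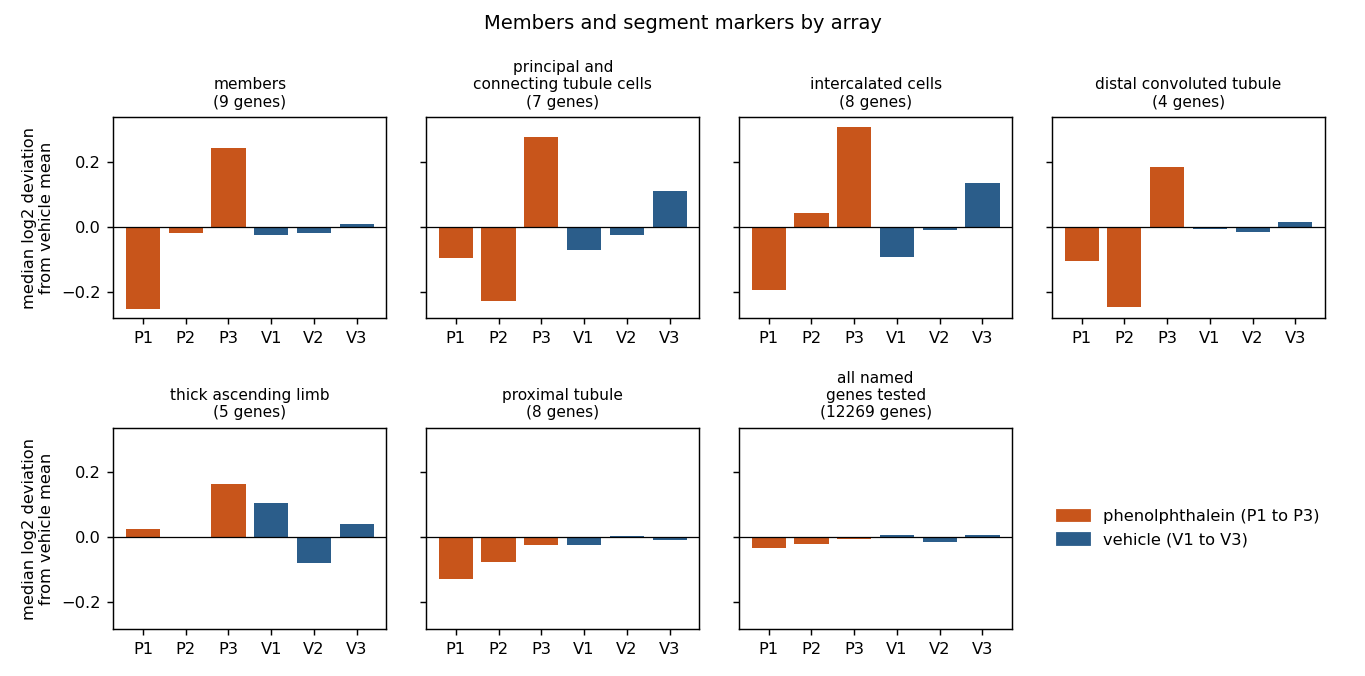
Median log2 deviation from the vehicle mean, per array, over the members, over the markers of 5 nephron cell types and over all named genes tested. P1 to P3 are phenolphthalein rats and V1 to V3 vehicle rats; the members and the principal, intercalated, distal convoluted tubule and thick ascending limb markers are highest in P3, and all named genes stay near 0 in every rat.

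Aqp2, the vasopressin-regulated water channel of principal cells, was lower in all phenolphthalein rats than in any vehicle rat on the brighter of its probes. On that probe it stood at 5.75, 6.16 and 6.39 in the phenolphthalein rats, against 6.60, 6.43 and 7.0 in the vehicle rats. The log2 fold change was -0.58 (SE 0.20, limma adjusted p = 0.510), and its second probe, on which the groups overlapped, gave -0.49 (limma adjusted p = 0.522), neither past the threshold. Of the 7 principal and connecting tubule markers tested, Aqp2 alone had an unadjusted p under 0.05, against 10.1% of all named genes. Among these 7, 4 lay above 0 and 3 below 0 with a median of 0.01. Leukocyte markers had a log2 fold change below 0 for 6 of 6, against 55.6% of all named genes. Their phenolphthalein rats lay lower without overlap for 6 of 6, against 10.1%. The median was -0.51, with 0 past the adjusted threshold. Their summed linear level was 102 to 103 in phenolphthalein rats, against 120 to 159 in vehicle rats. Of 8 adrenal markers, Cyp11b1, Cyp11b2, Star, Mc2r and Nr5a1 were not well above background on any array. The summed linear level of the other 3, Cyp21a1, Cyp11a1 and Hsd3b1, was 2.18, 1.28 and 0.876 in the phenolphthalein rats, against 1.12, 1.11 and 1.08 in the vehicle rats, so phenolphthalein rat 1 was the highest and rat 3 the lowest.

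Of 13 listed genes that aldosterone induces in other settings, 12 were tested, and none passed the threshold. Of these 12, 9 had a log2 fold change above 0 and 3 below 0, against 55.6% of all named genes below 0. Per1, which is on this list, gave -0.62, and Sgk1, a member that aldosterone also induces, gave -0.61. The median of the 12 listed genes was 0.15, and the smallest value of the 9 above 0 was 0.01. At an unadjusted p under 0.05 there were 4 higher and 0 lower, against 4.09% of all named genes higher and 6.01% lower. Ndrg2, which encodes a protein phosphorylated by Sgk1, stood at 3.62, 3.56 and 3.77 in the phenolphthalein rats, against 3.32, 3.38 and 3.52 in the vehicle rats. Every phenolphthalein rat lay above every vehicle rat, by a log2 fold change of 0.25 (SE 0.08, limma adjusted p = 0.496), and its second probe gave 0.22.

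Edn1, the precursor of endothelin, stood at -4.10, -4.45 and -4.38 in the phenolphthalein rats, against -4.54, -4.87 and -5.14 in the vehicle rats, a log2 fold change of 0.54 without overlap (SE 0.21, limma adjusted p = 0.549). Tsc22d3, the glucocorticoid-induced leucine zipper, stood at 2.30, 2.70 and 2.84 in the phenolphthalein rats, against 2.38, 1.88 and 2.29 in the vehicle rats. Its groups overlapped, and the log2 fold change was 0.43 (SE 0.18, limma adjusted p = 0.557). On its second probe the groups were apart, by 0.56 (limma adjusted p = 0.457). Zbtb16, a transcription factor named after its values were seen, gave 1.91 with a wide interval, and vehicle rat 2 read -6.33 where the other 5 rats read -4.06 to -1.97. Its second probe gave 0.35 with overlapping groups (limma adjusted p = 0.849). The count of 4 at an unadjusted p under 0.05 was 0 without phenolphthalein rat 3 and 0 without vehicle rat 2. It was 2 without phenolphthalein rat 1, 2 without vehicle rat 3, 2 with the slide as a random block and 2 without the intensity trend. Without overlap, 4 of 12 lay higher and 0 lower, against 6.28% of all named genes higher and 10.1% lower.

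**Figure D5:**
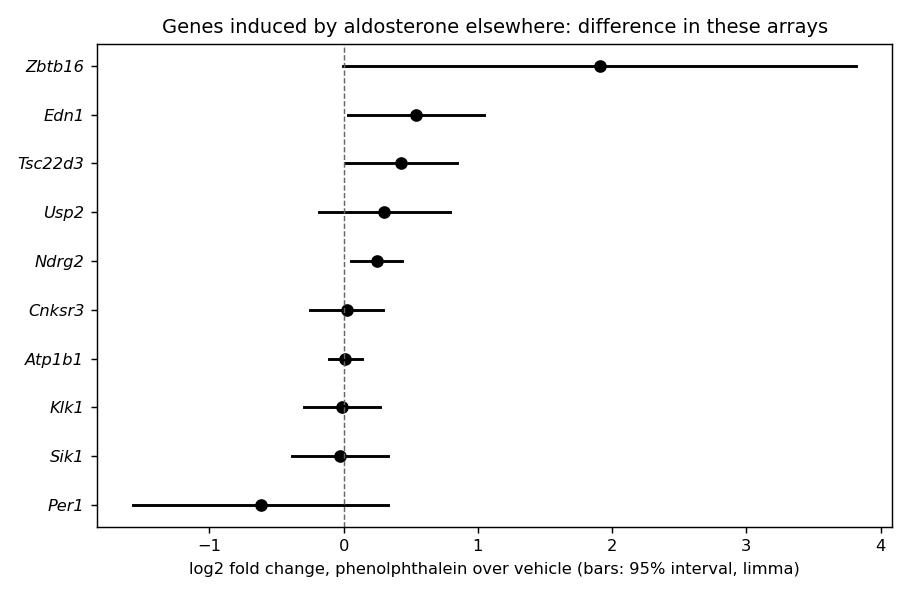
Log2 fold change of phenolphthalein over vehicle for 10 of the 12 tested genes known to be induced by aldosterone, each by its probe with the highest mean, with the 95% interval from limma as bars. The bars of Ndrg2, Edn1 and Tsc22d3 lie above 0; that of Zbtb16 is the widest, and those of the other genes cross 0.

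Proteases that cleave and activate the sodium channel, with their inhibitors, showed no call. Of these, 9 of 9 were tested, with a median log2 fold change of 0.02 by the probe with the highest mean. On these probes, 0 had an unadjusted p under 0.05, against 10.1% of all named genes. The smallest p among them belonged to Plau, the plasminogen activator urokinase, at -0.30 (SE 0.15, limma adjusted p = 0.625). The membrane protease St14 gave 0.11, the proprotein convertase Furin -0.09 (0.02 by its second probe) and the protease inhibitor Spint2 -0.06. Second, dimmer probes of Tmprss4 and Serpine2 gave -1.03 and -0.49, where their brighter probes gave -0.05 and 0.07.

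Among kinases and ubiquitin ligase partners around the channel, 14 of 17 listed were tested, and the median was 0.03. At an unadjusted p under 0.05, 1 was higher (4.09% of all named genes) and 0 were lower (6.01%). The 1 gene was Nherf2, a scaffold that binds Sgk1, at -0.62, -0.70 and -0.18 in the phenolphthalein rats, against -0.80, -0.98 and -0.86 in the vehicle rats. All phenolphthalein rats lay above the vehicle rats, by 0.38 (SE 0.15, limma adjusted p = 0.540). Stk39, the kinase SPAK, gave 0.21 (0.01 by its second probe), Pdpk1, which phosphorylates Sgk1, gave 0.12 and the ubiquitin ligase scaffold Cul3 gave -0.10 (up to 0.02 by its other probes).

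Of 9 receptor and prereceptor genes, 7 were tested, 0 had an unadjusted p under 0.05 (10.1% of all named genes) and the median was 0.04. The receptor chaperones Hsp90ab1 and Hsp90aa1 gave 0.17 and 0.15 by the probe with the highest mean and -0.03 and -0.17 by the median over their probes. The cochaperone Fkbp4 gave -0.19, and Hsd11b1, which regenerates corticosterone, gave 0.09.

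Other potassium and chloride channels of the distal nephron included 12 tested genes of 13, and their median was 0.02. At an unadjusted p under 0.05, 1 gene was higher and 1 was lower, against 4.09% and 6.01% of all named genes. Both were parts of the large-conductance calcium-activated potassium channel, the second route of potassium secretion beside ROMK. Kcnmb4, a beta subunit found in intercalated cells, stood at -2.98, -3.29 and -3.06 in the phenolphthalein rats, against -3.75, -3.74 and -3.74 in the vehicle rats. The groups were apart by a log2 fold change of 0.63 (SE 0.13, limma adjusted p = 0.406), and the second probe gave 1.02 although only 1 of 3 vehicle arrays had it well above background. Kcnma1, the pore subunit, stood at -3.00, -3.28 and -2.86 in the phenolphthalein rats, against -2.68, -2.69 and -2.51 in the vehicle rats. The groups were apart by -0.43 (SE 0.14, limma adjusted p = 0.493), but the other tested Kcnma1 probe gave 0.14. The potassium channel Kcnk1 gave 0.16.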

How the data were processed

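Spot intensities were produced with Agilent Feature Extraction 10.7.1.1, per the file headers (10.7 per the submitters' processing notes), background-subtracted and detrended within each array. The array design refers to rn4, so no probe coordinates are given. Per array, 64.8% to 72.1% of probes were well above background, 0 were saturated, and 2 to 14 outlier spots per array were left out. The deposited value table holds a ratio on a linear scale, the intensity divided by the array's 75th percentile. Each of its 6 columns equalled the scanner values of a different replicate within its group (SD of the log2 difference 0.000387 to 0.000402, column medians 0.102 to 0.106), so which rat of a group is which is unsettled. Scanner files were used with their own names, and the table as an alternative.

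Deposited intensities were converted here to log2 and set relative to each array's 75th percentile. Probes were named through RefSeq accessions with a GRCr8 gene table: 27460 had 1 symbol, 34197 none and 0 several. The 43473 probes well above background on at least 3 arrays entered limma 3.58.1 (R 4.3.3, lmFit and eBayes with trend, two-sided), and p-values were adjusted by Benjamini-Hochberg over all these probes. The tested probe with the highest mean stood for a gene. All members were named, and of each pathway list the 4 genes with the smallest p. A few genes of the lists entered the counts and medians but are not reported here by name. Members and lists were chosen with earlier results of these data known. On simulated data with 200 of 43473 probes changed (10 simulations), 27.6% of those changed 1.5-fold, 55.8% at 2-fold, 83.8% at 4-fold and 93.4% at 8-fold were recovered. The mean number of false calls was 6.5.

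Alternatives were other scalings, normexp, the value table, other filters, outlier spots kept, 1 probe per gene, the median over a gene's probes, no trend, the slide as a random block, a replicate block and leaving out each array. Normexp used the median foreground signal. The replicate numbers do not pair rats: deviations of same-numbered arrays correlated at -0.00852, -0.00914 and 0.0431, against -0.0505 to 0.0601 for other pairs.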

Additional observations from a re-analysis of the deposited data

How the results depend on the processing

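The 3 arrays per group limit the precision of every value, and the dim Kcnj10 probe had no value when all 6 arrays had to be well above background. The number of members past the threshold was 0 under every alternative run. At an unadjusted p under 0.05 it was 0 to 3 when 1 array was left out: 3 without phenolphthalein rat 2 (Scnn1a, Sgk1 and Nr3c2, against 9.50% of all probes in that fit), 1 without phenolphthalein rat 3 (Scnn1b, against 8.41%) and 1 without vehicle rat 3 (Kcnj10 at 1.2, against 6.30%). Calls over all probes were then 0 to 2. With the replicate block, 0 probes and 0 members passed, the members' median was -0.02 and no call changed. With the slide as a random block (consensus correlation 0.0878) that median was -0.04. It changed sign when 1 array was left out, from -0.169 without phenolphthalein rat 3 to 0.0939 without phenolphthalein rat 1. Of 239 values of the members' probes under the alternatives, 227 kept their direction and 12 did not.

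Those that turned did so mainly when 1 array was left out. Hsd11b2 then ranged from -0.261 to 0.244, Kcnj1 from -0.0653 to 0.115, its second probe from -0.142 to 0.0262, Kcnj16 from -0.169 to 0.0939, the second Scnn1b probe from -0.250 to 0.0434 and Scnn1g from -0.0671 to 0.231. Hsd11b2 also turned to 0.0154 with normexp, and Kcnj1 to -0.00781 by the median over its probes. Of 360 values of pathway genes 4 turned. Furin ranged from -0.147 to 0.00793 and Hsd11b1 from -0.00384 to 0.154 when 1 array was left out, and by the median over probes Hsp90aa1 was -0.166 and Hsp90ab1 -0.0281. The median of the receptor and prereceptor list was -0.000567 to 0.0975 when 1 array was left out and -0.0326 by the median over probes, and that of the protease list -0.0529 to 0.0766 and -0.0387. The cause of these turns was not tested. Repeats of the span count and of the count of higher aldosterone-induced genes were added after seeing the data. The count of those genes was 4, and 0 to 5 over its alternatives.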
